A study of Mus musculus with 16 samples.

Results

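The genes described here are 38 genes of S phase and mitosis, a list that holds Cenpf, measured in the left ventricle of mice with and without a mutation in the cardiac splicing factor RBM20. They were taken by symbol from a count table of 56953 genes in 16 libraries, and all 38 were found and passed the low-count filter that left 18662 genes tested. Cenpf itself entered the list because it stood out between the treated mutant and the control wild-type hearts, so its values in that comparison are a description. The 16 mice were males and females of the Bl6J strain. They were either wild type (WT) or homozygous for RBM20 P635L, and each had received 1e12 viral genomes of AAV9, an adeno-associated virus that transduces heart muscle, by tail vein at 4 weeks of age. The vector delivered Tnpo3 cDNA (Tnpo3 groups) or pCAG-iCre-T2A-eGFP (Ctr groups), so the control hearts received a Cre recombinase and a fluorescent protein and the Tnpo3 hearts did not. Left ventricles were collected when the mice were 16 weeks old, 12 weeks after the injection. With 4 mice per group and 1 library per mouse, the groups were P635L Tnpo3, P635L Ctr, WT Tnpo3 and WT Ctr.

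Cells that divide copy their DNA in S phase and then build a spindle that pulls the copies apart. Genes for replication are transcribed first, under E2F factors, and genes for mitosis follow in G2, many of them through the MuvB complex with B-Myb and FoxM1. Cardiomyocytes of the adult mouse rarely divide, and whole ventricle RNA also holds fibroblasts, endothelial cells and immune cells. Cenpf encodes centromere protein F, a very large coiled-coil protein that sits on kinetochores in mitosis and on microtubules outside it, and its deletion from mouse cardiomyocytes has been described to give dilated cardiomyopathy. In bulk tissue, fewer cells of a type and less RNA per cell cannot be told apart.

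Library totals ran from 28493249 to 85922669 counts. Levels are counts scaled to library size (CPM, with TMM factors), and levels between genes are compared as CPM per kilobase of exon (RPKM). Tnpo3, endogenous and vector-derived reads together, lay between 41.6 and 49.4 CPM in the 8 Ctr libraries and between 231.3 and 722.5 CPM in the 8 Tnpo3 libraries. A single gene, ENSMUSG00000119584, took 19.962% to 22.653% of the counts in WT Ctr replicates 2 and 4 and WT Tnpo3 replicate 4. Xist exceeded the Y-linked genes in 3 WT libraries (WT Ctr replicate 4 and WT Tnpo3 replicates 2 and 4) and in 0 of the 8 P635L libraries. The cardiomyocyte markers (Myh6, Tnnt2, Tnni3, Actn2, Ryr2, Ttn) summed to between 35094 and 64441 CPM, and all 6 were detected in every group.

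A single WT Ctr library stood apart in the cell cycle genes. WT Ctr replicate 1 had the highest CPM of all 16 libraries for 29 of the 38 genes and the highest of its group for 34. Summed over the 36 genes other than Cenpf and Cenpa it reached 181.7 CPM, against 78.3, 117.3 and 84.2 CPM in WT Ctr replicates 2, 3 and 4 and 74.5 to 132.2 CPM in the other 12 libraries. The same library held 80.4 CPM of 6 T cell markers (Cd3e, Cd3d, Cd3g, Trac, Cd4, Cd8a), against 2.35 to 6.36 CPM in the other 15, and 457.2 CPM of 6 macrophage markers, against 140.02 to 315.99 CPM. Their part in the levels of the cell cycle genes was not tested. For most fitted values against WT Ctr the value without this library is given as well.

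**Figure D1:**
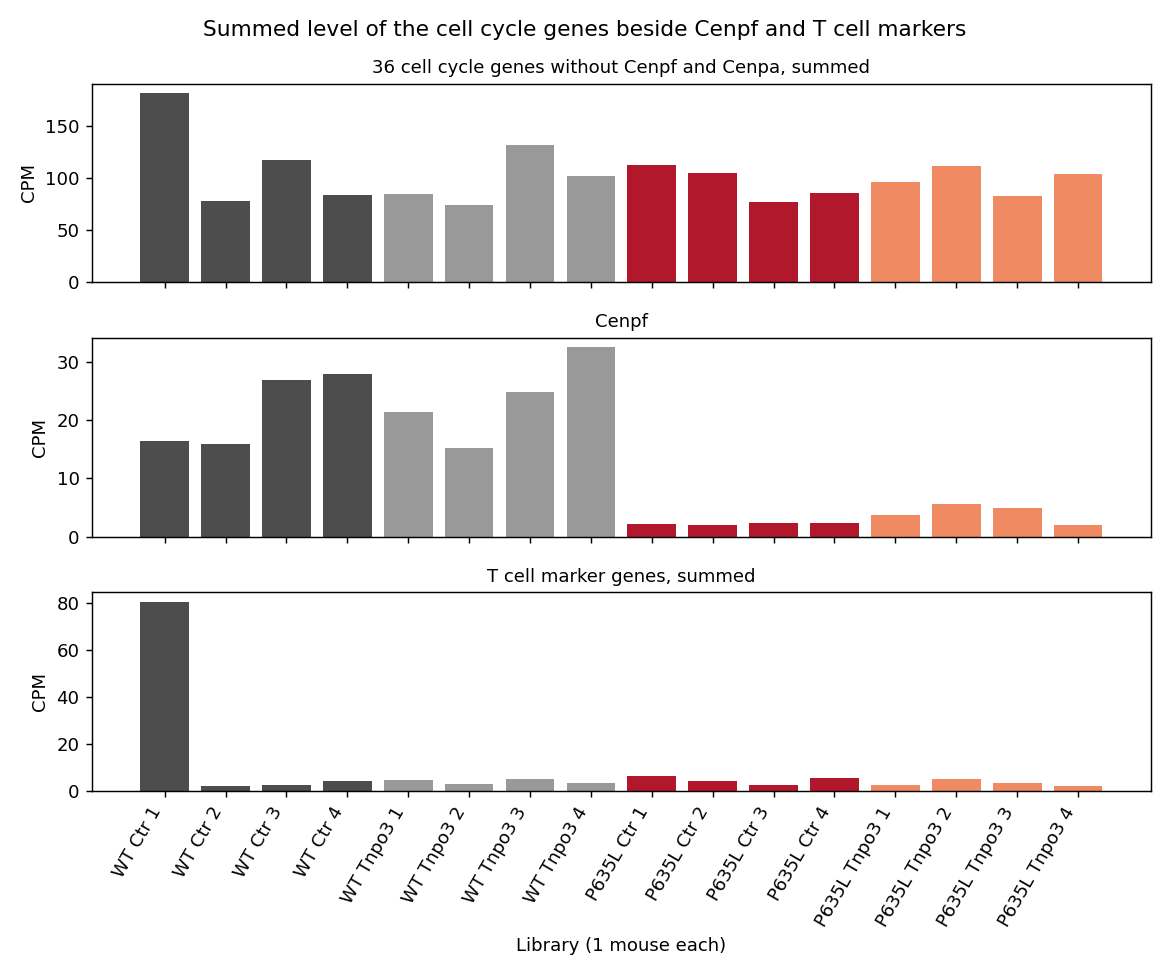
Bars give, for each of the 16 libraries, the summed CPM of 36 cell cycle genes (top), the CPM of Cenpf (middle) and the summed CPM of 6 T cell markers (bottom), colored by group. WT Ctr 1 is the tallest bar at the top (181.7 CPM) and at the bottom (80.4 CPM), whereas Cenpf is split by genotype.

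Most of the 38 genes were scarce. Raw counts per library ran from 2 to 2924, 9 genes had fewer than 10 counts in at least 1 library, and none was at 0 in any. The mean over all libraries was under 1 CPM for 6 genes, 1 to 5 CPM for 24 and 5 CPM or more for 8. Per kilobase of exon the highest was Cenpa, the histone H3 variant that marks centromeres, with a mean of 8.79 RPKM. The helicase subunits Mcm6, Mcm3 and Mcm5 followed with 3.17, 2.74 and 2.03 RPKM, and Hmmr, a spindle-associated protein, was lowest with 0.0812 RPKM. Cenpf held the sixth place of the 38 in WT Ctr with 1.41 ± 0.419 RPKM (SD, n = 4) and place 31 in P635L Ctr with 0.145 ± 0.0121 RPKM. Mki67, the proliferation marker Ki-67, held place 10 and place 11 in these groups, with 0.916 and 0.66 RPKM.

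Promoters of these genes shared sequence features. Of the 38 genes, 33 matched a RefSeq promoter (assembly GRCm38.p6), taken as the 250 bases before to 50 bases after the transcription start; Ccna2, Ccne2, Aurkb, Kif20a and Tpx2 did not. The letters TTTGAA, the core of the cell cycle homology region bound by MuvB complexes, were searched on both strands and occurred in 20 of the 33 (60.6%), against 20.2% of all 27025 genes. The letters CCAAT, the box bound by NF-Y, occurred on either strand in 27 of the 33 (81.8%), against 41.1% of all genes. Both motifs, neither of which contains the other, occurred in 19 of the 33 (57.6%) against 7.97%. Cenpf, Cenpa, Mki67 and Top2a held both, and Nusap1 held neither. The first 3 are printed 5′ to 3′ on the gene's strand, because Cenpf, Cenpa and Mki67 carry the same motifs, while Cenpf and Cenpa were called between P635L Ctr and WT Ctr and Mki67 was not; capitals mark both motifs and their reverse complements. A match is a description of these windows only.
Cenpf promoter, chr1:189688037-189688336, minus strand: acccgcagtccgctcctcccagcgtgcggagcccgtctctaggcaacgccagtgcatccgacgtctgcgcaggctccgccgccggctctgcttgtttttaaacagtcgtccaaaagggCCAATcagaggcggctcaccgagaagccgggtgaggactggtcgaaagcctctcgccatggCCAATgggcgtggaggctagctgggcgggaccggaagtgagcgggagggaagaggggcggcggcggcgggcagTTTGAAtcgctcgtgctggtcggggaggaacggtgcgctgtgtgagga
Cenpa promoter, chr5:30666636-30666935, plus strand: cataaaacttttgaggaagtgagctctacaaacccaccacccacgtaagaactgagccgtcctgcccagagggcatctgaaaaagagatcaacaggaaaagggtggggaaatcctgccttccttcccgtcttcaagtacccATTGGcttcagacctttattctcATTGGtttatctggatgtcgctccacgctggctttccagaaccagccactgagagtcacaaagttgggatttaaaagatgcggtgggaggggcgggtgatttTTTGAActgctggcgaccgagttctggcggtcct
Mki67 promoter, chr7:135716330-135716629, minus strand: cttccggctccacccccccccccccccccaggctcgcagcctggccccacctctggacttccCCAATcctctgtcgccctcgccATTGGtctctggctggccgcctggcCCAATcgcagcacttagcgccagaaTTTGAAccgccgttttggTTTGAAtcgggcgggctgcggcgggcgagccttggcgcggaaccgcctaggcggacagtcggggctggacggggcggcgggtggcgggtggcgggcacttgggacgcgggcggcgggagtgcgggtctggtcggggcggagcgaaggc

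Cenpf (ENSMUSG00000026605, chromosome 1, 189372803 to 189420283, minus strand, GRCm39) was low in every mutant heart. In WT Ctr its raw counts were 456, 385, 980 and 961, which are 16.5, 15.9, 26.9 and 27.8 CPM. In P635L Ctr they were 93, 192, 106 and 126, or 2.14, 2.03, 2.42 and 2.37 CPM. The 4 mutant libraries sat within a narrow band far below the lowest wild-type library, and the group mean of 2.24 ± 0.187 CPM (SD, n = 4) was 10.3% of the WT Ctr mean of 21.8 ± 6.46 CPM. The log2 fold change was -3.29 with a standard error of 0.30 (9.75-fold lower, adjusted p = 1.671e-06, edgeR's quasi-likelihood test with Benjamini-Hochberg adjustment over all 18662 genes, two-sided). Cenpf was gene 62 of 18662 by p-value and gene 126 by how far it was reduced. The WT Ctr libraries also took part in the comparison in which Cenpf was picked. The p-value and the ranks are therefore not independent of that choice. Without WT Ctr replicate 1, which was not its highest library, the log2 fold change was -3.40.

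The Tnpo3 virus groups gave the same direction in other libraries. WT Tnpo3 raw counts of Cenpf were 706, 603, 891 and 983, at 21.4, 15.2, 24.9 and 32.5 CPM, and P635L Tnpo3 raw counts were 152, 286, 255 and 105, at 3.71, 5.62, 4.96 and 2.02 CPM. The ranges did not overlap, and P635L Tnpo3 was lower by 2.52 on the log2 scale with a standard error of 0.29 (5.75-fold, adjusted p = 0.000151, edgeR). These 8 libraries are none of the 8 in the comparison under the control virus, although P635L Tnpo3 is also a group in which Cenpf was picked. Across all 16 libraries the highest P635L value was 5.62 CPM and the lowest WT value 15.2 CPM. Cenpf was the only 1 of the 38 genes whose 8 mutant and 8 wild-type libraries did not overlap. The share of all genes apart in this way was not counted. The libraries include those in which Cenpf was picked, so this separation is descriptive. Against WT Ctr, the comparison that brought Cenpf into the list, P635L Tnpo3 gave a log2 fold change of -2.42, a value that is descriptive only.

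Whether the Tnpo3 virus moved Cenpf in mutant hearts depended on the test. The P635L Tnpo3 mean was 4.08 ± 1.58 CPM (SD, n = 4), 18.7% of the WT Ctr mean, and replicates 1, 2 and 3 lay above all P635L Ctr libraries while replicate 4, at 2.02 CPM, lay below them. The log2 fold change over P635L Ctr was 0.87 with a 95% confidence interval of 0.25 to 1.48 and did not pass after adjustment (adjusted p = 0.111, edgeR). It passed with DESeq2 (adjusted p = 0.0331), in a fit of the 2 groups alone (0.0425 with edgeR) and without P635L Tnpo3 replicate 4 (log2 fold change 1.09, adjusted p = 0.0230). In P635L Tnpo3 the order of the libraries by Tnpo3 (358.7, 722.5, 542.5 and 233.8 CPM in replicates 1 to 4) was also the order by Cenpf, and in WT Tnpo3 (281.9, 261.6, 231.3 and 507.1 CPM) it was not; with 4 libraries a group this relation was not tested. In WT hearts the virus gave a log2 fold change of 0.11 (95% confidence interval -0.47 to 0.68, adjusted p = 1.00). The difference between the virus effects in the genotypes was 0.76 on the log2 scale (95% confidence interval -0.078 to 1.60, adjusted p = 0.452).

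**Figure D2:**
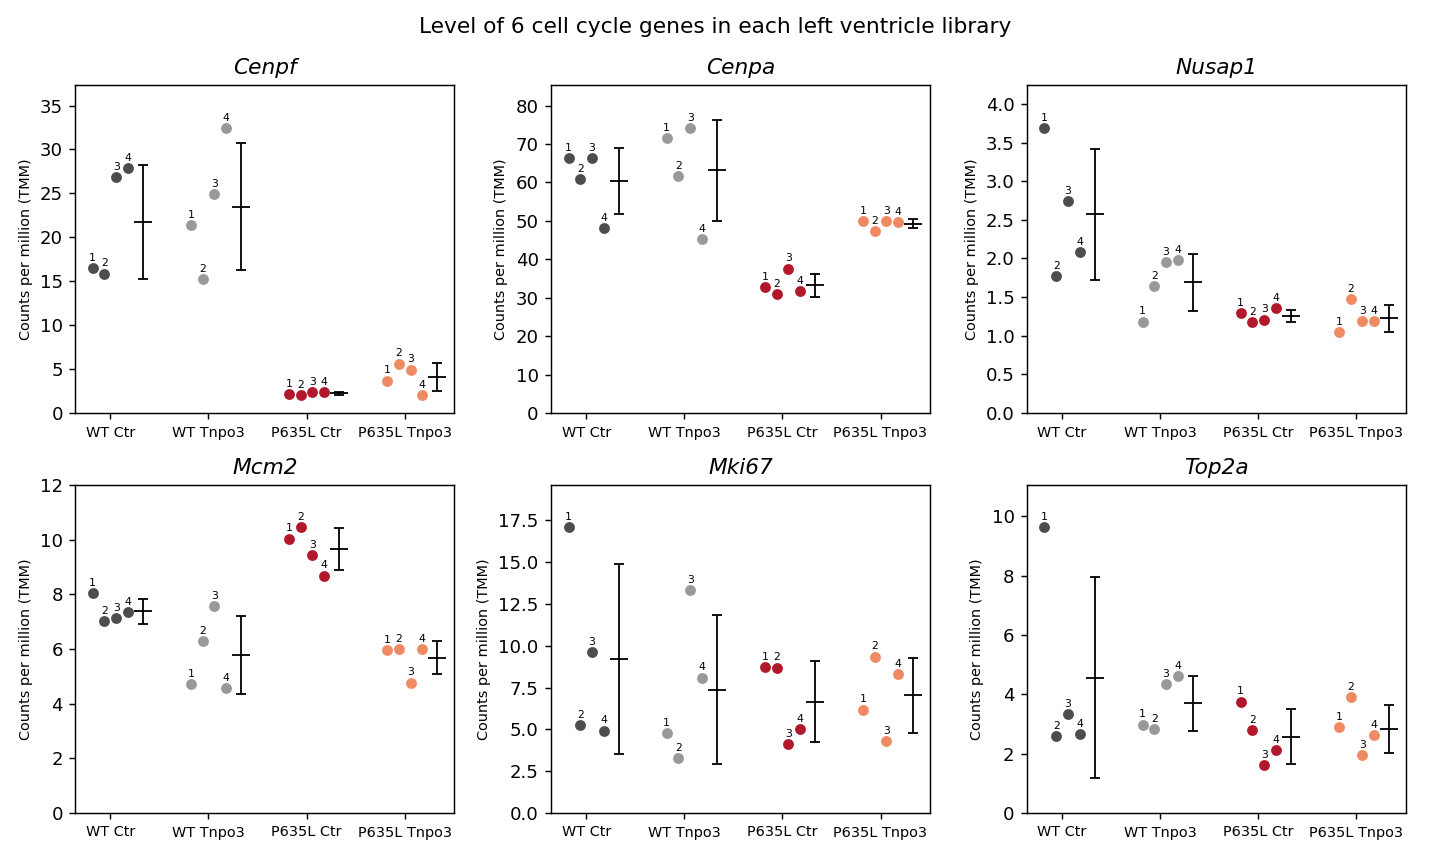
Each point is 1 library (1 mouse), labelled with its replicate number, with TMM-scaled CPM on the y axis and the 4 groups on the x axis; the horizontal mark and bar give the group mean and SD (n = 4). Cenpf is between 2.02 and 5.62 CPM in all P635L libraries and between 15.2 and 32.5 CPM in all WT libraries, while Mki67 and Top2a overlap in all groups.

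Cenpa (ENSMUSG00000029177, chromosome 5, 30824121 to 30832174, GRCm39) was the second kinetochore gene to fall. Its CPM was 66.3, 60.8, 66.3 and 48.1 in WT Ctr (raw counts 1473 to 2420) and 32.8, 30.9, 37.6 and 31.7 in P635L Ctr (raw counts 1425 to 2924). The groups did not overlap, and the log2 fold change was -0.86 with a standard error of 0.14 (adjusted p = 0.000375, edgeR); it was -0.81 without WT Ctr replicate 1 (adjusted p = 0.00132). P635L Tnpo3 libraries lay between these groups in mean, at 49.98, 47.42, 49.99 and 49.77 CPM, all above P635L Ctr. Cenpa rose over P635L Ctr by 0.57 on the log2 scale with a standard error of 0.14 (adjusted p = 0.0277, edgeR). This call was lost when any 1 of 7 libraries was left out, P635L Ctr replicates 1, 2 and 4 and P635L Tnpo3 replicates 1 to 4 (adjusted p 0.0511 to 0.0973), while the log2 fold change stayed between 0.55 and 0.63. In WT Tnpo3 it was 71.6, 61.7, 74.2 and 45.2 CPM, a log2 fold change of 0.067 over WT Ctr, and P635L Tnpo3 against WT Tnpo3 gave -0.36 (adjusted p = 0.153).

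Nusap1 (ENSMUSG00000027306), a protein that bundles spindle microtubules, fell as well. WT Ctr held 3.69, 1.77, 2.74 and 2.09 CPM (raw counts 102, 43, 100 and 72) and P635L Ctr 1.29, 1.18, 1.21 and 1.36 CPM (56, 112, 53 and 72). The ranges were apart, with a log2 fold change of -1.03 and a standard error of 0.25 (adjusted p = 0.00924, edgeR), or -0.81 with an adjusted p of 0.0382 without WT Ctr replicate 1. P635L Tnpo3 stayed at 1.05 to 1.47 CPM, a log2 fold change of -0.036 over P635L Ctr (95% confidence interval -0.56 to 0.49). WT Tnpo3 held 1.18 to 1.98 CPM and overlapped both mutant groups, and P635L Tnpo3 against WT Tnpo3 gave -0.46 (adjusted p = 0.318). Exons of Nusap1 overlap those of Oip5 on the other strand by 172 bases, and whether strand was used in counting is not given in the sources used here.

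Mcm2, a subunit of the replicative helicase, was the only gene of the list called lower under the Tnpo3 virus in mutant hearts. Its CPM was 8.03, 7.01, 7.13 and 7.36 in WT Ctr (raw counts 170 to 260), 10.04, 10.4, 9.44 and 8.68 in P635L Ctr (414 to 990) and 5.96, 5.99, 4.77 and 6.01 in P635L Tnpo3 (244 to 312). The 3 groups did not overlap one another. Of all genes, 19.1% were apart in this way for P635L Ctr against WT Ctr and 20.4% for P635L Tnpo3 against P635L Ctr. The share for P635L Tnpo3 against WT Ctr is not given here. Mcm2 fell in P635L Tnpo3 against P635L Ctr by 0.77 on the log2 scale with a standard error of 0.16 (adjusted p = 0.00979, edgeR), and it passed under all 24 alternatives run. The value for P635L Ctr over WT Ctr was 0.39 (adjusted p = 0.107; 0.43 and 0.106 without WT Ctr replicate 1), and for WT Tnpo3 (4.56 to 7.57 CPM) over WT Ctr -0.35 (adjusted p = 1.00, edgeR; unadjusted p = 0.0385). Mcm3, Mcm5 and Mcm6, which sit in the same helicase ring, gave 0.056, -0.029 and 0.044 in P635L Tnpo3 against P635L Ctr.

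The usual markers of proliferation, Mki67 and Top2a, did not pass in any comparison with all 16 libraries. Mki67 was 17.1, 5.24, 9.62 and 4.93 CPM in WT Ctr (raw counts 472, 127, 351 and 170), 8.73, 8.7, 4.11 and 5.03 CPM in P635L Ctr (379, 824, 180 and 267), 4.8, 3.28, 13.3 and 8.09 CPM in WT Tnpo3 and 6.17, 9.35, 4.3 and 8.32 CPM in P635L Tnpo3. All 4 groups overlapped. For P635L Ctr over WT Ctr the log2 fold change was -0.47 (95% confidence interval -1.44 to 0.50, adjusted p = 0.537, edgeR), and 0.011 without WT Ctr replicate 1. Top2a, the topoisomerase that untangles sister chromatids, was 9.62, 2.6, 3.34 and 2.67 CPM in WT Ctr (raw counts 266, 63, 122 and 92) and 3.76, 2.8, 1.62 and 2.13 CPM in P635L Ctr (163, 265, 71 and 113). It gave -0.82 (95% confidence interval -1.62 to -0.016, adjusted p = 0.170), and -0.16 without WT Ctr replicate 1. Without the 3 libraries rich in ENSMUSG00000119584, which leaves WT Ctr replicates 1 and 3, Top2a was called lower (-1.28, adjusted p = 0.0443, edgeR). In P635L Tnpo3 over P635L Ctr the values were 0.081 for Mki67 (95% confidence interval -0.89 to 1.05) and 0.14 for Top2a (-0.66 to 0.94).

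**Figure D3:**
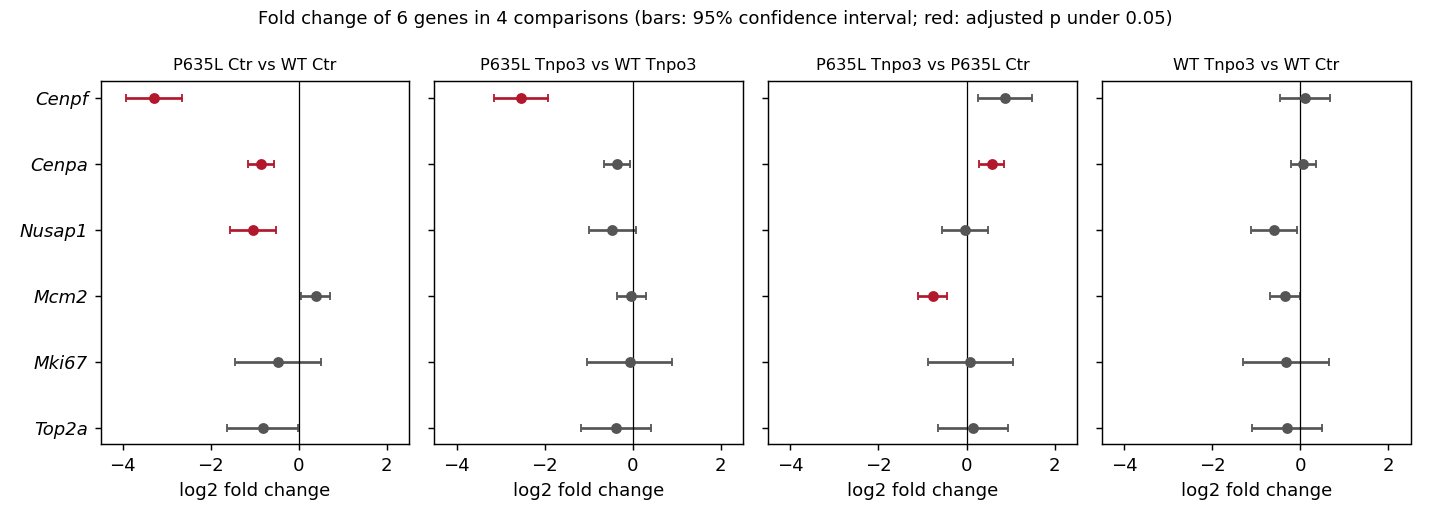
Points are log2 fold changes of 6 genes in 4 comparisons with 95% confidence intervals, red where the adjusted p is under 0.05. Cenpf is far to the left of 0 in both comparisons of P635L with WT (-3.29 and -2.52), and none of the 6 is red for WT Tnpo3 against WT Ctr.

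In P635L Ctr against WT Ctr, 3 of the 38 genes were called, all lower, which is 7.89% of them, while 14.2% of all genes tested were called and 7.14% were called lower. The median log2 fold change of the 38 was -0.56, with 33 of 38 below 0, against a median of -0.049 over all genes. Without WT Ctr replicate 1 the median was -0.12, with 22 of 38 below 0, and the same 3 genes were called, beside 13.1% of all genes tested. Groups of 4 and 4 that did not overlap were found for 5 of the 38 genes (Mcm2 higher; Cenpa, Cenpe, Cenpf and Nusap1 lower), against 19.1% of all genes. Markers of other cells moved with this comparison too. All 5 fibroblast markers were called higher (summed 1067 to 1566 CPM against 624.6 to 907.3 CPM), and 2 of 6 cardiomyocyte markers, Myh6 and Tnni3, were called lower (summed 36884 to 40718 CPM against 50456 to 64441 CPM). Of the macrophage and of the T cell markers, 6 of 6 each were below 0 and 1 of 6 each (Cd68 and Cd4) was called lower. Without WT Ctr replicate 1, 0 of 6 each were called (edgeR, 0 and 3 at an unadjusted p under 0.05). The direction changed in that fit: 5 of 6 T cell markers were above 0 (median 0.996), with Cd4 at -0.80, and 3 of 6 macrophage markers were above 0. The calls of the fibroblast and cardiomyocyte markers were 5 of 5 and 2 of 6 without WT Ctr replicate 1 as well. None of these markers was at 0 in a whole group, and their part in the cell cycle values was not tested.

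By role, the medians ran from -0.84 for chromosome and kinetochore to -0.16 for S phase and replication. Without WT Ctr replicate 1 the median of each role was higher, from -0.48 to 0.11 for the same roles. Differences between roles were not tested. The 9 genes of S phase and replication had a median of -0.16, from -0.54 for Rrm2, a subunit of ribonucleotide reductase, to 0.39 for Mcm2, and 0 of 9 was called by edgeR or by DESeq2 as run here (1 at an unadjusted edgeR p under 0.05). Without WT Ctr replicate 1 their median was 0.11. The 11 G2 and M cyclins and kinases had a median of -0.74, and -0.13 without that library. With all libraries 0 of the 11 were called by either tool (0 at an unadjusted edgeR p under 0.05), and values ran from -1.18 for the checkpoint kinase Bub1 to 0.29 for its relative Bub1b, or from -0.77 to 0.53 for the same genes without WT Ctr replicate 1.

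The chromosome and kinetochore genes were below 0 in 6 of 6, with Cenpf and Cenpa called. Without WT Ctr replicate 1 they were below 0 in 4 of 6, with Mki67 at 0.011 and Birc5 at 0.14, and the called genes were the same. Cenpe, a kinetochore motor, was 0.949 to 1.95 CPM in WT Ctr and 0.365 to 0.918 CPM in P635L Ctr (log2 fold change -1.16, adjusted p = 0.0983), and gave -1.18 (adjusted p = 0.123) without that library. Of the 10 spindle and cytokinesis genes 9 were below 0 and Nusap1 alone was called, and without WT Ctr replicate 1 the count was 7 of 10, with Nusap1 again the only call and then the lowest. With all libraries the lowest was Hmmr at -1.47, on raw counts of only 3 to 43 in WT Ctr and 4 to 29 in P635L Ctr, and it was -0.69 without that library. The highest of the 38 was Kif20a, a kinesin of cytokinesis, at 0.49, or 0.83 (adjusted p = 0.0513) without WT Ctr replicate 1, and its exons overlap Cdc23 on the other strand. Cdc20 and Ube2c, which serve the anaphase-promoting complex, were at -0.56 and -0.71, or -0.098 and -0.30 without that library, and neither was called.

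**Figure D4:**
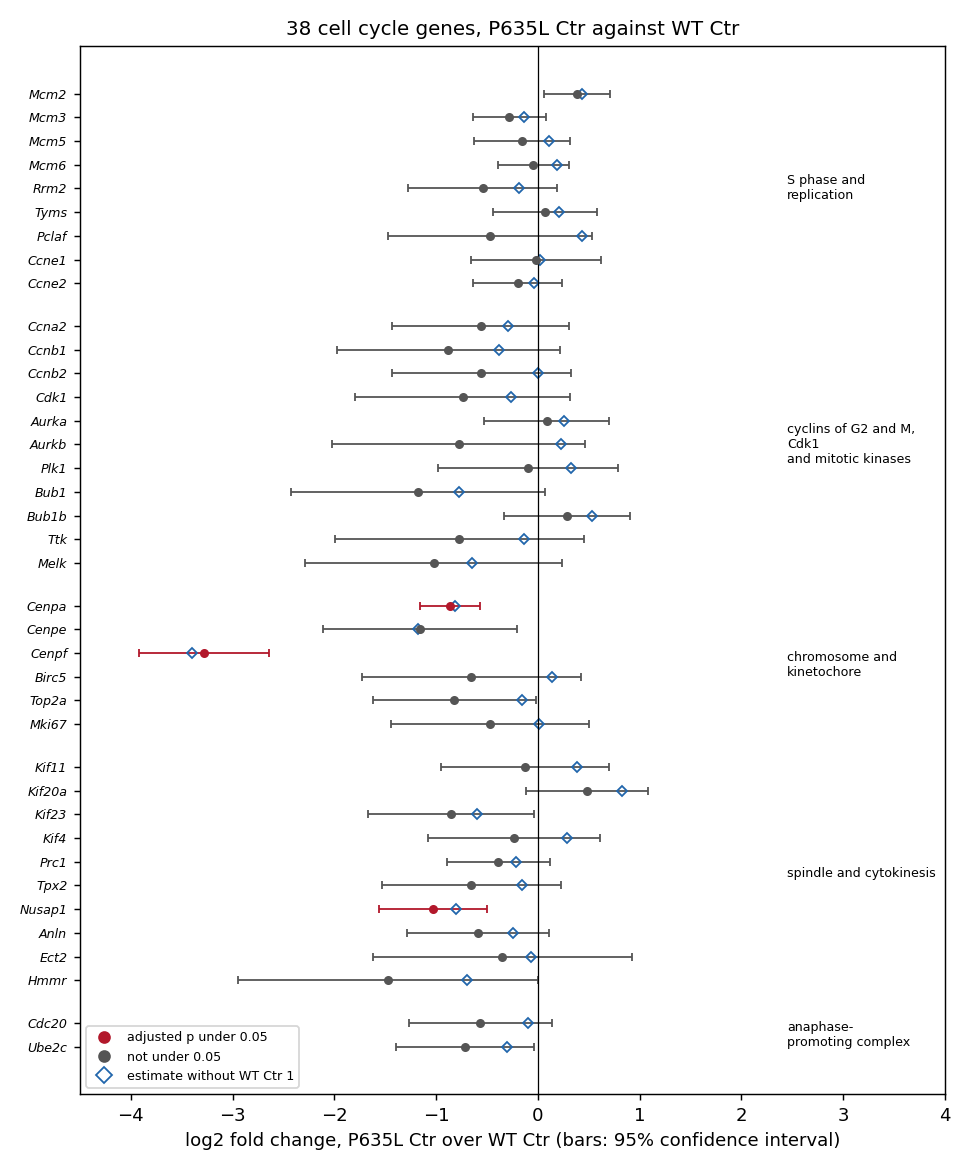
Circles are log2 fold changes of the 38 genes, P635L Ctr over WT Ctr, with 95% confidence intervals, grouped by role (right); open diamonds are the estimates without WT Ctr 1. Most diamonds lie nearer to 0 than their circles or past it, with a median of -0.12 against -0.56, while Cenpf, at -3.29, moves to -3.40.

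In P635L Tnpo3 against P635L Ctr, 2 of the 38 genes were called (Cenpa higher, Mcm2 lower), 5.26% of them beside 3.88% of all genes. The median was 0.23, with 30 of 38 above 0, and 0.0067 over all genes. Beside this, 4 of 5 fibroblast markers were called lower (summed 704.6 to 960.2 CPM against 1067 to 1566 CPM). The macrophage markers summed to 200.06 to 315.99 CPM against 140.02 to 183.5 CPM, with 0 of 6 called by edgeR and 4 at an unadjusted p under 0.05. WT Ctr replicate 1 is in neither group but enters the shared estimate of the spread. Without that library 3 of 6 macrophage markers were called higher and 5 of 5 fibroblast markers lower. The part of these markers was not tested. Ccne2, a cyclin that drives entry into S phase, did not overlap between the groups (1.69 to 1.98 CPM against 2.22 to 2.49 CPM), as did not Cenpa and Mcm2; 20.4% of all genes were apart in this way, and Ccne2 did not pass the test. In P635L Tnpo3 against WT Tnpo3 only Cenpf was called, 2.63% of the 38 beside 3.72% of all genes, with a median of -0.00027 and 19 genes on either side of 0. Cenpf was also the only gene of the list whose groups were apart there, beside 11.5% of all genes. Cenpa was called as well without WT Tnpo3 replicate 4.

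In WT Tnpo3 against WT Ctr, 0 of the 38 were called by edgeR or DESeq2, beside 0.00536% of all genes called. At an unadjusted edgeR p under 0.05 there were 3 (Mcm2, Nusap1 and Anln), beside 597 of all 18662 genes. Without WT Ctr replicate 1 there was 1 such gene, Kif20a, at 0.73 with a standard error of 0.27. With all 16 libraries the median of the 38 was -0.27 with 31 of 38 below 0, and it was 0.15 with 14 below 0 without WT Ctr replicate 1. No gene of the list was apart between these groups, beside 1.09% of all genes. For the difference between the virus effects in the genotypes, 0 were called by edgeR or DESeq2, beside 0.504% of all genes. Cenpa and Anln had an unadjusted edgeR p under 0.05, beside 2321 of all 18662 genes. Without WT Ctr replicate 1 such genes were Cenpa, Cenpf and Kif20a, and the median of 0.46 became 0.11. In P635L Tnpo3 against WT Ctr, which chose Cenpf, Cenpf and Nusap1 were below the threshold beside 3.07% of all genes. Nusap1 gave -1.07 there, and -0.84 with an adjusted p of 0.0700 without WT Ctr replicate 1. These comparisons share the WT Ctr libraries.

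Another 97 cell cycle genes outside the 38 were counted the same way. In P635L Ctr against WT Ctr 1 was called higher and 6 lower, beside 14.2% of all genes called and 7.14% called lower, so calls were not more frequent in this list than over all genes. Without WT Ctr replicate 1 the counts were 2 and 5: Gmnn was no longer called (-0.45, adjusted p = 0.101), the CDK inhibitor Cdkn2c was called higher (0.60), and the other 6 were called as before. Rbl2, the pocket protein p130 that holds E2F genes off in resting cells, rose by 0.48 on the log2 scale (adjusted p = 0.0113, edgeR), from 16.2 to 18.7 CPM in WT Ctr to 22.1 to 27.4 CPM in P635L Ctr. Sgo2a, a shugoshin that guards centromeric cohesin, fell by 1.94 (adjusted p = 8.8e-06), from 2.85 to 4.22 CPM to 0.691 to 1.21 CPM. The kinetochore component Spc24 (-1.11), the microtubule destabiliser Stmn1 (-0.87), the centromere protein Cenpp (-0.95), the polymerase subunit Pola1 (-0.76) and the licensing inhibitor Gmnn (-0.54) also fell. Under the Tnpo3 virus in mutant hearts, Sgo2a rose by 1.45 (2.12 to 2.99 CPM, adjusted p = 0.000975) and Rbl2 fell by 0.67 (14.5 to 16.2 CPM, adjusted p = 0.00470). Pola1 was also called lower in P635L Tnpo3 against WT Tnpo3 (-0.63). Of 15 other centromere proteins, Cenpp was the only 1 called in P635L Ctr against WT Ctr, and its -0.95 was the lowest value on that list.

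The authors' deposited table for P635L Ctr and WT Ctr, with its sign turned so that negative is lower in the mutant, gives Cenpf at -3.27. The authors' deposited table lists 5 of the 38 genes (13.2%) under an adjusted p of 0.05 there, beside 15.6% of all genes with an adjusted p in it, namely Mcm2 (0.40), Cenpa (-0.85), Cenpe (-1.15), Cenpf and Nusap1 (-1.02). The authors' deposited table for P635L Tnpo3 and WT Ctr lists Cenpf (-2.39) and Nusap1 (-1.04), beside 6.25% of all genes. The authors' deposited table for WT Tnpo3 and WT Ctr lists 0 of the 38, beside 0.0123%.

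RBM20 is a splicing factor, so the splicing tables were searched for the same genes. The authors' deposited rMATS tables, which list exon inclusion as a fraction, held 45 events in 20 of the 38 genes for P635L Ctr against WT Ctr, 21 of them backed by a mean of 10 or more junction reads in each of the groups. At an rMATS false discovery rate under 0.05 and an inclusion difference of at least 0.1, 3 events passed, beside 2.52% of all events of that depth. Cenpf had 1 listed event, a skipped exon with inclusion reads of 2, 8, 12 and 29 in WT Ctr and 0, 0, 0 and 3 in P635L Ctr, too few for a comparison. Tyms, thymidylate synthase, had 2 of the 3 events that passed, which share their skipping junction. For its skipped exon the inclusion levels were 0.038, 0.048, 0.06 and 0.103 in WT Ctr and 0.216, 0.185, 0.273 and 0.0 in P635L Ctr, so 1 mutant library lay below all wild-type ones (exact permutation test over libraries, two-sided, p = 0.143). For its alternative 5′ splice site the inclusion levels were 0.038, 0.13, 0.06 and 0.103 in WT Ctr and 0.286, 0.193, 0.273 and 0.148 in P635L Ctr (exact permutation p = 0.0286, the smallest that 4 against 4 allow), on 13 inclusion reads in all in WT Ctr and 51 in P635L Ctr. An exon of Birc5, the survivin subunit of the Aurora B complex, had inclusion of 1.0, 1.0, 0.826 and 1.0 against 0.879, 0.897, 0.778 and 0.786 (exact permutation p = 0.0857). Its inclusion reads were 66, 3, 19 and 6 in WT Ctr and 29, 70, 7 and 22 in P635L Ctr, with only 2 and 10 skipping reads in all. For P635L Tnpo3 against WT Ctr 0 of 17 events of that depth passed the rMATS rule, beside 2.12% of all. For WT Tnpo3 against WT Ctr 1 of 18 passed, beside 0.941%: an alternative 3′ splice site of Tyms with inclusion of 0.133, 0.314, 0.092 and 0.276 against 0.05, 0.0, 0.0 and 0.015 (exact permutation p = 0.0286), on 29 and 3 inclusion reads.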

How the data were processed

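Polyadenylated RNA of left ventricles was sequenced as stranded libraries, per the labels' protocols. The authors' deposited table holds raw counts per gene, made with featureCounts 2.0.6 after STAR 2.7.9a on GRCm39, per the submitters' processing notes; the strand setting is not given in the sources used here. The authors' deposited DESeq2 tables give log2 fold changes and p-values per the file headers, and the rMATS tables give junction reads and inclusion levels (a fraction) per the file headers, without the order of libraries within a group. Symbols came from a GENCODE M21 name table, which held 52029 of 56953 gene identifiers.

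Counts were tested with edgeR 4.0.16 in R 4.3.3 (TMM, filterByExpr, robust quasi-likelihood F test, all 16 libraries in 1 model with 12 residual degrees of freedom, two-sided). Adjusted p-values are Benjamini-Hochberg over 18662 genes, called under 0.05. The fit was tested on simulated data. Alternatives were median-ratio and upper-quartile scaling, no filter, DESeq2 1.42.0, only the groups compared, a replicate block and leaving out libraries. Members, lists and tests were chosen with earlier results of these data known. Named were Cenpf, Mki67 and Top2a in each comparison, each gene called, the others by role with the extremes of each role; other cell cycle genes were named where called. Splicing of single genes, library orders, the genes apart between groups and the marker sums were picked for naming after their values were seen. The mice of a group are separate animals. Coordinates of genes are those of the count table (GRCm39); promoters are RefSeq GRCm38.p6. Of 10 members whose exons overlap another gene, 9 overlap on the other strand. Of 98 other cell cycle genes listed, 97 were found.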

Additional observations from a re-analysis of the deposited data

Results flagged for a closer look

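With 4 libraries per group, a library far from the other 3 was looked for in 156 groups (38 genes and their sum in 4 groups each), where chance gives about 7.8. It was found 9 times. High values in WT Ctr replicate 1 were 2.06 CPM for Ccnb1 (next 0.795), 9.62 CPM for Top2a (next 3.34) and 1.99 CPM for Kif20a (next 1.03). High values in WT Tnpo3 replicate 3 were 2.1 CPM for Aurkb (next 0.925), 1.26 CPM for Bub1 (next 0.264) and 2.38 CPM for Kif11 (next 1.18). The others were Hmmr in P635L Ctr replicate 1 (0.668 CPM, next 0.158), and the low values of Mcm2 in P635L Tnpo3 replicate 3 (4.77 CPM, next 5.96) and Cenpa in P635L Tnpo3 replicate 2 (47.4 CPM, next 49.8).

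By the interaction term of the edgeR fit, 2 of the 97 cell cycle genes outside the 38 were called, beside 0.504% of all genes. For these 2, named because they were called, the effect of the Tnpo3 virus differed between P635L and WT hearts. The difference was -0.88 on the log2 scale for Rbl2 and 1.54 for Sgo2a, each with an adjusted p of 0.0228.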

How the results depend on the processing

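Of 143 recounts of called members under 24 alternatives (23 for the interaction), 126 stayed within 1.5 times and 17 did not. For P635L Tnpo3 against WT Ctr the count was 1 in place of 2 with no low-count filter, with the replicate block and with only the groups compared, and 1 to 2 when single libraries were left out. For P635L Tnpo3 against WT Tnpo3 it was 3 without the libraries rich in ENSMUSG00000119584, 2 without those with high Xist, and 1 to 2 when single libraries were left out. For P635L Tnpo3 against P635L Ctr it was 1 to 2 when single libraries were left out. Cenpf in P635L Ctr against WT Ctr ranged from -3.40 to -3.11 and passed in all 24. Among 549 single-gene values, 17 reversed sign, none of them past the threshold. Leaving out single libraries took Cenpf in WT Tnpo3 against WT Ctr to -0.089 to 0.30, and leaving out the ENSMUSG00000119584-rich libraries to -0.049. For Mki67 and Top2a the ranges were -0.68 to 0.011 and -1.03 to -0.16 (P635L Ctr against WT Ctr), -0.78 to 0.16 and -0.49 to 0.36 (WT Tnpo3 against WT Ctr), -0.091 to 0.26 and -0.043 to 0.39 (P635L Tnpo3 against P635L Ctr), and -0.077 to 0.86 and -0.22 to 0.67 (interaction). Mki67 alone ranged from -0.60 to 0.090 (P635L Tnpo3 against WT Ctr) and -0.31 to 0.39 (P635L Tnpo3 against WT Tnpo3). The cause was not tested. Same-numbered libraries were mostly not alike (correlations -0.257 to 0.552, 6 of 24 over 0.1, 5 of 24 best matched by number), and the block changed no other count. The highest correlations were between WT Ctr and WT Tnpo3, 0.276 for replicate 3 and 0.552 for replicate 4, both best matched by number. Replicate 4 of WT Ctr and replicate 4 of WT Tnpo3 were also both rich in ENSMUSG00000119584 (21.222% and 22.653% of counts) and both high in Xist. The part of these traits, and whether WT libraries of the same number share a batch, were not tested. Without the ENSMUSG00000119584-rich libraries Top2a was called in P635L Ctr against WT Ctr (-1.28, adjusted p = 0.0443 by edgeR), and without P635L Ctr replicate 1 Hmmr was called too. For Hmmr, raw counts were 3 to 43 in WT Ctr and 4 to 29 in P635L Ctr, and the SD of its CPM was 92.8% and 114% of the mean. For such genes small differences were not detectable at this depth and with this spread between mice.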
